A study of Arabidopsis thaliana with 12 samples.

Results

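The response of seedling roots to chitin was read on 6 of the 12 arrays of a study of oligosaccharide elicitors in Arabidopsis thaliana, taken by their labels as 3 chitin arrays and 3 control arrays with biological replicate numbers 1 to 3. Every probe set of the Affymetrix ATH1 array other than the manufacturer's controls was included, 22746 in all. The other 6 arrays hold roots treated with cellobiose, a disaccharide from cellulose, or with oligogalacturonides (OGs), pectin fragments, and they enter here as a shared estimate of the spread and as a comparison. All plants were of ecotype Col-0, 7 days old, with no transgene or mutation named. They grew on nylon mesh, which kept roots apart from shoots, and each sample pooled the roots of many seedlings. The chitin group got what the labels call chitin and the design text calls chito-oligomers, for 25 min, and the control group got no elicitor over the same time. The labels and the design text state no dose or chain length, nor whether controls were mock-handled. The submitters screened their RNA samples by qRT-PCR for the expected profile of WRKY30, a gene with no named probe set here, and what that screen did to the sizes reported below was not tested.

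Chitin is a polymer of N-acetylglucosamine in fungal walls, and short chains of it are released when plant enzymes attack a fungus. Arabidopsis senses them at the plasma membrane through receptor kinases with LysM domains, which pass the signal to cytoplasmic kinases, to calcium influx, to an oxidative burst and to mitogen-activated protein kinases. Within minutes transcription factors such as WRKY proteins and genes for calcium sensors, ubiquitin ligases and wall-modifying enzymes are induced, and roots as well as leaves make this response.

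Levels are log2 probe set intensities, so a difference of 1 is a doubling, and a probe set's level cannot be compared with another's. Array medians lay between 6.53 and 6.60 in controls and between 6.50 and 6.56 with chitin, as normalization between arrays gives. Replicate arrays correlated across probe sets at 0.986 to 0.996 in controls and at 0.991 to 0.993 with chitin. A single gene was listed for 13513 probe sets (59.4%), and 1580 of these have a symbol other than the locus. A gene with such a probe set is called measured below. Of 349 genes in 28 lists of pathways and markers, 79 were measured. List members were chosen with earlier results of these data known, so counts within a list only describe those members. No member was measured for chitin perception (8 listed), the MAP kinase cascade (14), jasmonate (17) or secretion and callose (8), so those steps were not examined. Marker levels were read beside the root label, but they cannot show how pure the roots were, as levels of different probe sets cannot be compared. PYK10, a root beta-glucosidase, was at 13.36 to 13.51 in controls and 13.25 to 13.65 with chitin. The root hair expansin gene EXPA7 was at 9.17 to 9.95 in controls and 8.87 to 9.50 with chitin. RCA, which encodes rubisco activase of green tissue and was the 1 measured shoot marker of 8, was present at 10.48 to 11.53 in controls and 10.68 to 11.05 with chitin. None of the 6 measured tissue markers was called, and no root cap or vascular marker was measured. In whole roots, a change in the number of cells of a type and a change in RNA per cell cannot be told apart.

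To see which genes respond to chitin, the 2 groups were compared with limma, with the replicate number as a block and p adjusted by Benjamini-Hochberg over all probe sets. At an adjusted p under 0.05, 2002 probe sets (8.80%) changed, 1130 upward (4.97%) and 872 downward (3.83%). Each of the 2002 had the same sign in its 3 pairs. The fit was blocked by these same pairs, so this agreement is no separate support for the calls. Of the 13513 probe sets with 1 listed gene, 622 rose (4.60%) and 467 fell (3.46%), and of the 1580 with a symbol, 74 rose (4.68%) and 56 fell (3.54%). The median rise was 1.36 log2, with quartiles of 0.77 and 2.26, and the median fall was -0.58, with quartiles of -0.85 and -0.44, against a median of -0.041 over all probe sets. A change of at least 2-fold was reached by 708 rises (3.11%) and 147 falls (0.646%), of at least 4-fold by 349 and 17, and of at least 8-fold by 157 and 2. Chitin and control arrays did not overlap for 1061 of the rises and 832 of the falls. Over all probe sets the groups did not overlap for 2300 that were higher with chitin (10.1%) and 3822 that were lower (16.8%).

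The split between rises and falls depended on the scaling. Ordinary t tests, without the variance shared across probe sets, gave 743 rises and 368 falls, and after the arrays were rescaled to the poly-A spike-ins, RNAs added to each sample, the same tests gave 715 and 15. That scaling moved the median of all probe sets from -0.041 to 0.17 log2. Mean spike-in levels were 6.96 ± 0.28 in controls and 6.75 ± 0.18 with chitin (SD, n = 3), and the 2 groups overlapped. Falls below are therefore falls relative to the bulk of probe sets, and of the 30 called falls that the naming rule picked, 4 kept their call after spike-in scaling (AT2G21560, AT5G61590, AT3G20340 and ATL8), against 40 of its 46 called rises. The rescaling added 0.21 log2 to every difference, which makes each fall smaller and each rise larger by that amount. Calls after spike-in scaling also rest on ordinary t tests, while the calls they are set against come from limma. Falls that stayed large lost their call too, as SIM at -1.43 log2 (ordinary t test, adjusted p = 0.136) and AT2G28200 at -1.56 (adjusted p = 0.152). Of the control spike-in means, replicate 1 stood at 7.28 and the others at 6.80 and 6.805.

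Calls were also counted by the control signal of a probe set, which depends on its probes as well as on the transcript and so does not rank genes by expression. In the dimmest 25% of probe sets, from 2.82 to 4.20, 91 rose (1.60%) and 4 fell, and signals near the floor leave little room for a fall. In the next 25%, up to 6.58, 336 rose (5.91%) and 165 fell, and in the one after it, up to 8.39, 374 rose (6.58%) and 323 fell. In the brightest 25%, from 8.40 to 14.52, 329 rose (5.79%) and 380 fell (6.68%). Of the 157 rises of at least 8-fold these ranges held 24, 75, 47 and 11.

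**Figure D1:**
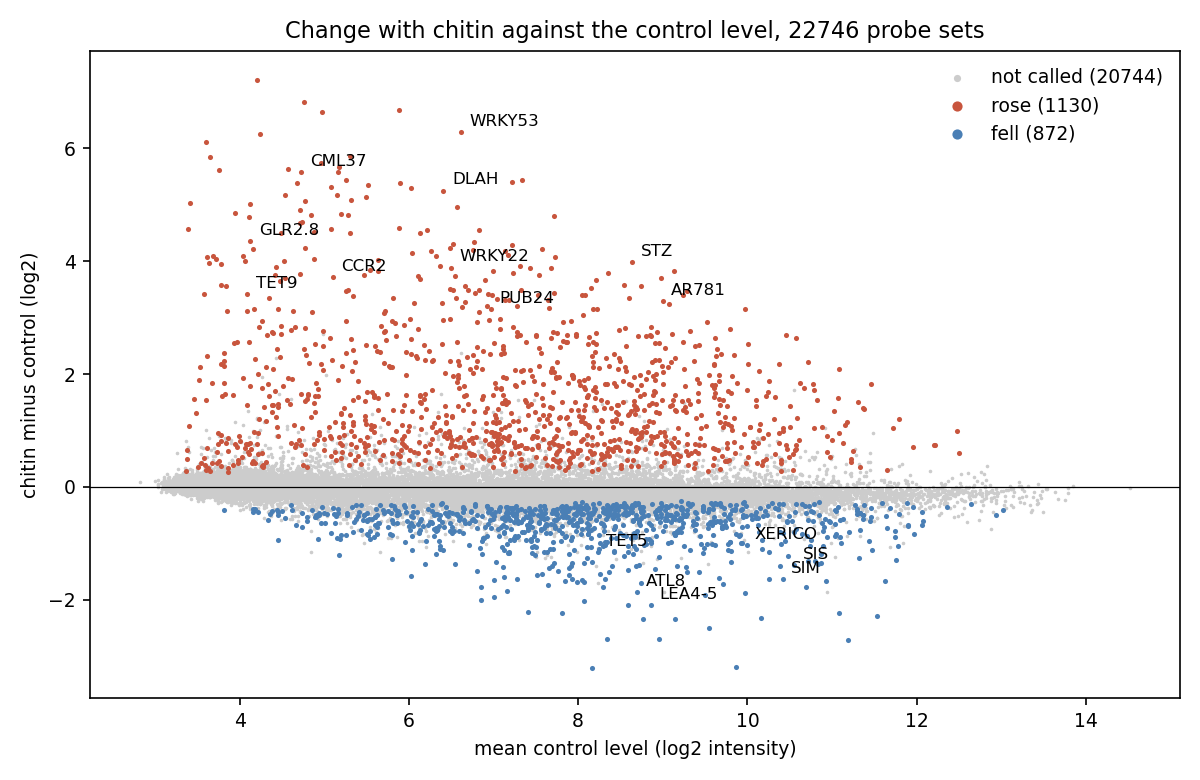
Each point is 1 of 22746 probe sets, with its mean control level (log2 intensity) on the horizontal axis and its chitin minus control difference (log2) on the vertical axis; red points rose and blue points fell at an adjusted p under 0.05 (limma), grey points were not called, and selected genes with a symbol are labelled. Rises reach 7.21 log2, while no fall exceeds 3.22.

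The first replicate gave smaller changes than the others. The median of the called rises was 0.93 log2 in pair 1, 1.68 in pair 2 and 1.42 in pair 3, and for the 157 rises of at least 8-fold it was 3.11, 4.64 and 4.25. These 157 stood at a median level of 6.70, 5.60 and 5.58 on control arrays 1 to 3, and at 10.08, 10.51 and 10.17 on chitin arrays 1 to 3. Control replicate 1 was thus the high control, and it was the highest of the 3 for 799 of the 1130 rises (70.7%), against 33.3% of all probe sets. It was also the lowest control for 627 of the 872 falls (71.9%), against 42.9% of all probe sets. Its spike-in mean was 7.28, above the 6.80 of the next control. What sets this array apart was not tested. Without control replicate 1, 1066 probe sets rose and 588 fell. The falls dropped further without other arrays, to 181 without control replicate 3, 255 without chitin replicate 2, 318 without chitin replicate 3 and 400 without control replicate 2, where the rises were 698, 725, 914 and 821. Without chitin replicate 1, 1032 rose and 829 fell.

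**Figure D2:**
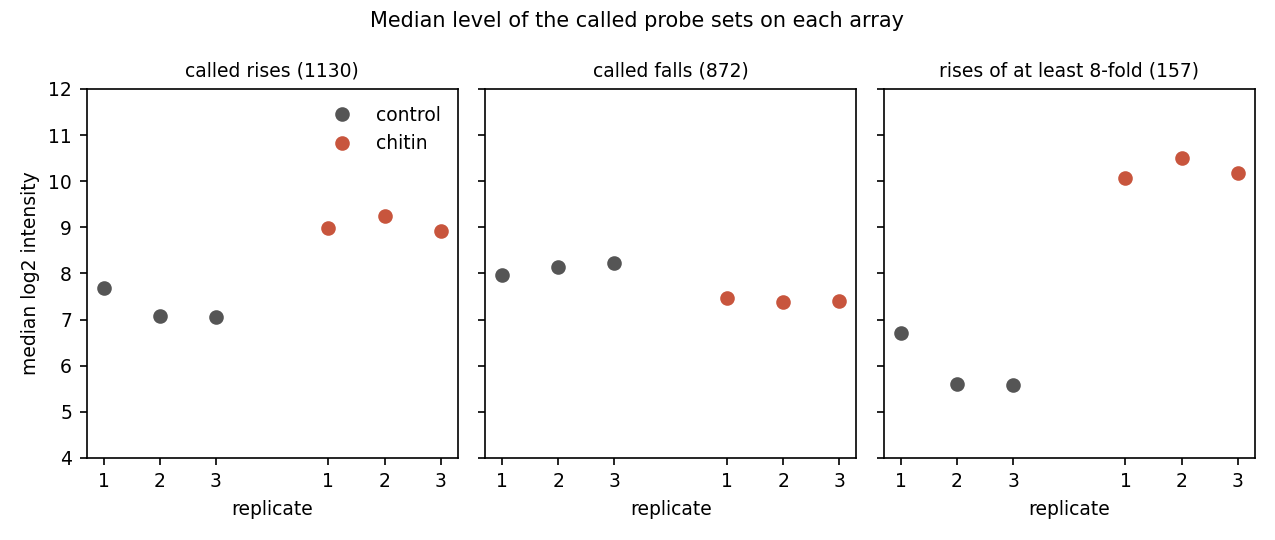
Median log2 intensity of 3 sets of called probe sets on each control array (grey) and chitin array (red), by replicate number. For the 157 rises of at least 8-fold, control replicate 1 sits at 6.70, above 5.60 and 5.58 on the other controls, and the chitin arrays lie between 10.08 and 10.51.

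Among transcription factors, 3 of 7 measured WRKY genes rose, where 4.97% of all probe sets rose. WRKY53, a factor of defence and leaf senescence, was at 7.35, 6.00 and 6.51 on control arrays 1 to 3 and at 12.78, 13.12 and 12.82 on chitin arrays 1 to 3. All chitin arrays lay more than 5 log2 units above the highest control, and the chitin arrays were closer to each other than the controls were. The difference was 6.29 ± 0.27 log2 (SE; limma adjusted p = 2.1e-05), the largest rise of a gene with a symbol. WRKY22, which acts downstream of immune MAP kinases, went from 7.37, 5.85 and 6.28 to 10.37, 10.57 and 10.23, a rise of 3.89 ± 0.36. WRKY6, a factor of senescence and phosphate responses, was bright and even in controls at 8.71, 9.0 and 8.98 and rose to 10.45, 10.75 and 10.56. Its rise of 1.69 ± 0.11 was smaller than that of WRKY53 and its arrays were even within both groups. The other 4 measured members, ZAP1, WRKY20, WRKY42 and WRKY47, lay between -0.13 and 0.31 log2 and were not called. The median over the 7 was 0.31 log2, against -0.041 over all probe sets.

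The zinc finger list held genes that moved in opposite directions. STZ, a repressor induced by salt, cold and other stress, was at 10.91, 7.50 and 7.51 in controls and at 12.72, 12.89 and 12.27 with chitin. The groups did not overlap, but control replicate 1 lay over 3 log2 units above the other controls. The rise was 3.99 ± 0.66 log2 (SE; limma adjusted p = 0.00542), ranged from 3.37 to 4.98 as each array was left out, and missed the threshold with ordinary t statistics (adjusted p = 0.0509). AT2G28200, in the same list, went from 7.76, 8.41 and 8.72 to 6.29, 6.65 and 6.65, a fall of 1.77 ± 0.28 (log2 -1.77) that was at -1.56 after spike-in scaling, where it did not pass (adjusted p = 0.152). ORA47, the 1 measured AP2/ERF gene of 17 listed and a regulator of jasmonate synthesis, was at 6.85, 3.97 and 4.05 in controls and 7.71, 4.45 and 4.11 with chitin. Its first replicate was high in both groups, and it was not called (0.47 ± 0.59 log2, adjusted p = 0.696). Of 14 genes matched by annotation words to bZIP proteins 2 fell, where 3.83% of all probe sets fell, and 12 were not called. The 2 were bZIP58 (log2 -0.94 ± 0.13) and bZIP48 (-0.45 ± 0.10). Both calls were lost after spike-in scaling. That of bZIP48 was also lost without 4 of the 6 arrays, when only the 6 arrays were fitted and with ordinary t tests (adjusted p = 0.0583). The word match missed BZIP60, which rose by 1.81 ± 0.15. It also missed BZIP53, BZIP28, BZIP61, BZIP17 and BZIP34, and none of these was called.

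Of 11 measured genes of the calcium list 6 rose and none fell, with a median of 1.49 log2, where 4.97% of all probe sets rose. CML37, a calmodulin-like sensor, was at 6.54, 3.83 and 3.80 in controls and at 10.29, 10.70 and 9.92 with chitin. Control replicate 1 was again the high control, and the rise was 5.58 ± 0.65 log2 (SE; limma adjusted p = 8.8e-04), from 4.81 to 6.23 as each array was left out. AT3G01830, a locus of the calcium list, showed the same pattern more strongly at 8.59, 3.88 and 4.07 against 11.77, 10.53 and 10.30. It rose by 5.35 ± 0.66, and by 6.45 without control replicate 1. AT5G39670, of the same list, rose by 5.38 ± 0.56 from 7.46, 5.22 and 5.0 to 10.78, 11.71 and 11.34. CML42, a calmodulin-like gene known from insect defence and trichomes, was already bright in controls at 9.06, 8.87 and 8.89, and went to 11.30, 12.07 and 11.68. Its controls agreed closely, and the rise was 2.75 ± 0.23. CML38, a sensor gene known from wounding and low oxygen, lay at 10.53, 9.26 and 7.97 in controls and at 11.28, 10.66 and 10.28 with chitin. The groups overlapped and it was not called (1.49 ± 0.56, adjusted p = 0.151).

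Glutamate receptor-like genes encode cation channels that carry calcium in wound and immune signalling. Of 7 measured, 2 rose, where 4.97% of all probe sets rose, and these 2 stand side by side in the genome. GLR2.8 was near the low end of the scale in controls at 4.43, 4.03 and 3.92 and at 7.62, 9.25 and 8.61 with chitin. It rose by 4.36 ± 0.65 log2 (SE; limma adjusted p = 0.0031), from 3.72 to 4.93 as each array was left out. GLR2.9 was at 3.59, 3.51 and 3.35 in controls and went to 4.19, 5.21 and 4.99. Its rise of 1.31 ± 0.30 lost its call without control replicate 2, control replicate 3, chitin replicate 2 or chitin replicate 3, and in ordinary t tests (adjusted p = 0.104). GLR2.7, which belongs to the same subgroup, was at 4.10 to 4.19 in controls and 4.52 to 4.63 with chitin and was not called (0.40 ± 0.11, adjusted p = 0.0634). These genes are close relatives, and hybridization of transcripts of 1 of them to the probes of another was not tested. GLR3.3, a channel of long-distance wound signals, was at -0.13 ± 0.09 and was not called.

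**Figure D3:**
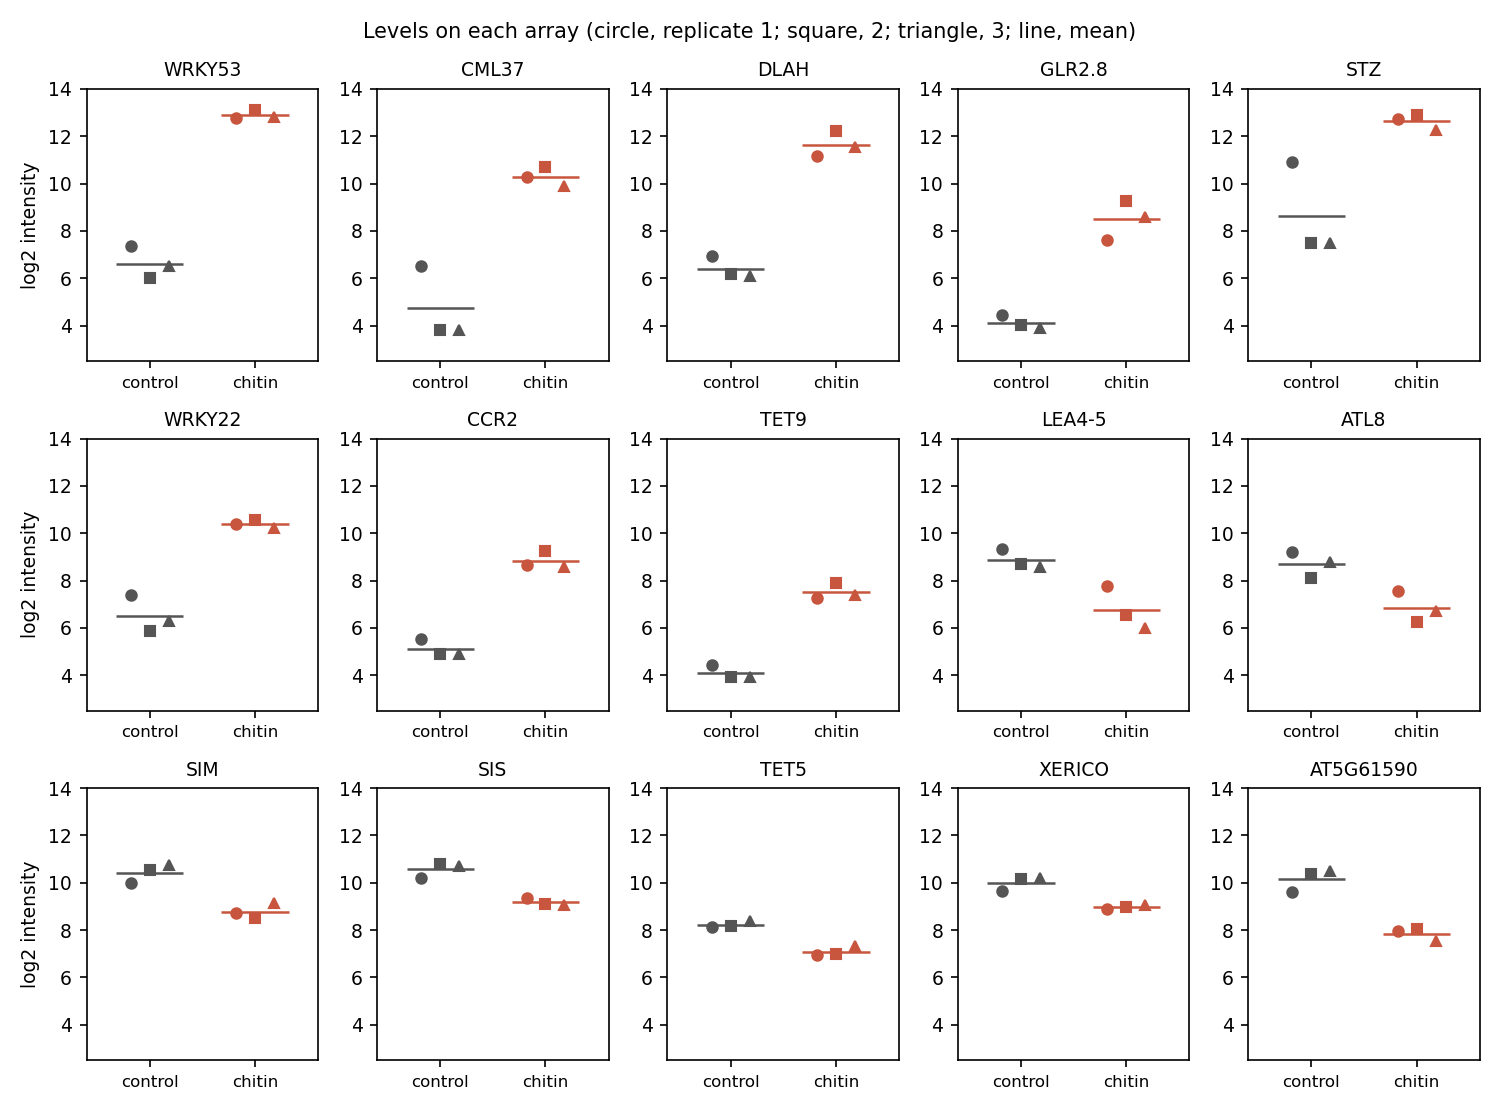
Log2 intensity of 15 named genes on the 3 control arrays (grey) and the 3 chitin arrays (red); circles, squares and triangles are replicates 1, 2 and 3, and lines are group means. WRKY53 goes from 6.00 to 7.35 in controls to 12.78 to 13.12 with chitin, and for CML37 and STZ the circle of control replicate 1 lies above the other controls, while AT5G61590 and TET5 are lower on all 3 chitin arrays.

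Of immune receptors and cytoplasmic kinases 4 of 9 measured genes rose and none fell, where 4.97% of all probe sets rose. The median was 0.32 log2. BIK1, a kinase that receptor complexes phosphorylate and that activates the oxidative burst, was at 8.68, 8.90 and 8.92 in controls and at 9.67, 10.27 and 10.09 with chitin. The groups were apart, and the rise was 1.17 ± 0.14 log2 (SE; limma adjusted p = 9.1e-04). AT5G47070 and AT3G09830, which the list holds among cytoplasmic kinases, rose by 2.84 ± 0.31 and by 2.36 ± 0.18. AT3G09830 went from 8.98, 8.31 and 7.97 to 11.14, 10.81 and 10.41, and its 3 pairs moved alike. SD1-29, a lectin-type receptor kinase for bacterial 3-hydroxy fatty acids, went from 5.52, 5.40 and 5.51 to 6.77, 6.74 and 6.68 and rose by 1.25 ± 0.19. It was even within both groups. The receptor genes FER (0.27 ± 0.11), THE1 (0.23 ± 0.11) and EFR (0.15 ± 0.12) were not called, and EFR stayed at 3.94 to 4.45 on all 6 arrays. Of the oxidative burst list 2 of 8 genes were measured and none was called.

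In the list of ubiquitin ligases of immunity 6 of 8 measured genes rose and none fell, where 4.97% of all probe sets rose. The list median was 2.71 log2, and the count of rises was 6 under every alternative. Of 8 genes matched by annotation words to U-box proteins 4 rose and 1 fell, and their median was 0.43 log2. PUB22, PUB23 and PUB24 encode related U-box ligases that dampen immune signalling. PUB24 went from 7.14, 6.94 and 6.83 to 10.02, 10.39 and 9.94, and within each group the arrays lay within 0.5 log2 units. Its rise was 3.15 ± 0.18 (SE; limma adjusted p = 4.3e-05). PUB23 went from 10.62, 8.93 and 9.02 to 12.49, 12.62 and 12.21 and rose by 2.92 ± 0.32. PUB22 went from 9.47, 8.30 and 8.35 to 11.51, 11.53 and 11.14 and rose by 2.68 ± 0.28. For both, control replicate 1 was more than 1 log2 unit above the other controls and still below every chitin array. AT5G37490, a locus of this list, had 1 of the cleanest responses, from 4.53, 4.56 and 4.52 to 9.14, 10.11 and 9.88, and rose by 5.17 ± 0.32. Of 2 genes matched by annotation words to RING-type proteins, RHF1A rose (0.90 ± 0.09) and BRH1 fell (-0.72 ± 0.16), with the call of BRH1 lost without 4 of the 6 arrays. RING1, a RING-type ligase of programmed cell death, rose by 2.74 ± 0.31, and PUB25, a U-box ligase that acts on BIK1, by 0.71 ± 0.12. PUB19, a U-box gene of drought responses, lay at 9.22, 8.58 and 8.22 in controls and 8.43, 8.02 and 6.88 with chitin. The groups overlapped and it was not called (-0.89 ± 0.40, adjusted p = 0.218).

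Both measured genes of the salicylate list, of 13 listed, rose, where 4.97% of all probe sets rose. SAG101, a partner of EDS1 in immunity, went from 6.69, 6.23 and 6.35 to 7.46, 8.03 and 8.07, a rise of 1.43 ± 0.19 log2 (SE; limma adjusted p = 0.00198). GRX480, a glutaredoxin that joins salicylate to jasmonate signalling, was at 10.22, 6.61 and 6.73 in controls and 11.59, 10.26 and 9.42 with chitin. Control replicate 1 lay above chitin replicate 3, so the groups overlapped although each pair rose. The rise was 2.57 ± 0.45 with the pairs blocked (adjusted p = 0.00719), and with no replicate block the adjusted p was 0.188. DLAH, which encodes an acylhydrolase related to the lipase DAD1, went from 6.95, 6.18 and 6.10 to 11.19, 12.21 and 11.56 and rose by 5.25 ± 0.45. AR781, a gene with no stated role here, went from 10.56, 8.31 and 8.13 to 12.56, 12.35 and 11.96 and rose by 3.29 ± 0.39.

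Chitinases cut chitin, and 5 of 10 listed genes were measured. AT1G02360 was bright in controls at 9.96, 10.45 and 10.36, went to 11.60, 12.48 and 12.32 and rose by 1.87 ± 0.21 log2 (SE; limma adjusted p = 6.8e-04). The groups did not overlap, and the rise lay between 1.74 and 1.99 as each array was left out. AT2G43620 had the larger difference, from 5.11, 4.97 and 4.86 to 7.56, 7.54 and 8.0, yet was not called (2.72 ± 0.86, adjusted p = 0.0892). Its 6 arrays formed separate groups, and when only they were fitted it passed. AT2G43590 lay at 1.06 ± 0.34 (adjusted p = 0.0956), CHI at 0.44 ± 0.42 and ChiC, a class V chitinase, at 0.27 ± 0.49, and none of them was called. When only the 6 arrays of the 2 groups were fitted, 4 of the 5 chitinase genes rose, and 1145 of all 22746 probe sets did.

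In phenylpropanoid synthesis, which makes lignin and phenolic compounds, 3 of 18 listed genes were measured. CCR2, a cinnamoyl-CoA reductase that is induced by pathogens, went from 5.53, 4.89 and 4.89 to 8.64, 9.24 and 8.59 and rose by 3.72 ± 0.51 log2 (SE; limma adjusted p = 0.00203). HCT, an acyltransferase needed for lignin in growing tissue, went from 10.16, 10.29 and 10.28 to 9.91, 9.99 and 9.79. The groups were apart but the fall was small (-0.35 ± 0.08), and its call was lost whichever of the 6 arrays was left out. AT3G13610 was at 0.27 ± 0.36 and was not called.

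Wall genes rose in a few members of large families. Of 29 measured xyloglucan hydrolases and expansins 4 rose and none fell, and the family median was 0.02 log2, where 4.97% of all probe sets rose. The count of rises was 1 with ordinary t tests, 1 after spike-in scaling and from 1 to 5 as each array was left out. EXLA3, an expansin-like gene, was at 8.60, 5.42 and 5.17 in controls and 9.64, 9.34 and 9.10 with chitin. Control replicate 1 lay just below the lowest chitin array, far above the other controls. The rise was 2.96 ± 0.56 (SE; limma adjusted p = 0.0109), reached 3.91 without control replicate 1, and lost its call without control replicate 2 or 3 and without chitin replicate 2 or 3. XTH18 and XTH19, adjacent genes for enzymes that cut and rejoin xyloglucan, rose by 2.23 ± 0.35 and 0.87 ± 0.17. XTH18 went from 10.49, 9.02 and 8.59 to 11.69, 11.63 and 11.47, while the groups of XTH19 overlapped. XTH19 lost its call with no replicate block (adjusted p = 0.121), with ordinary t tests, after spike-in scaling and without 3 of the 6 arrays. In the list for pectin and wall fragments, 3 of 5 measured members rose. AT4G20830, listed for an oxidase of OGs, went from 9.86, 9.50 and 9.46 to 11.55, 12.06 and 11.75 and rose by 2.18 ± 0.21. AT4G20860, of the same list, rose by 1.01 ± 0.24 and lost its call without 4 of the 6 arrays. ATPMEPCRB, a pectin methylesterase, rose by 2.03 ± 0.35 and missed the threshold with ordinary t statistics (adjusted p = 0.0567).

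**Figure D4:**
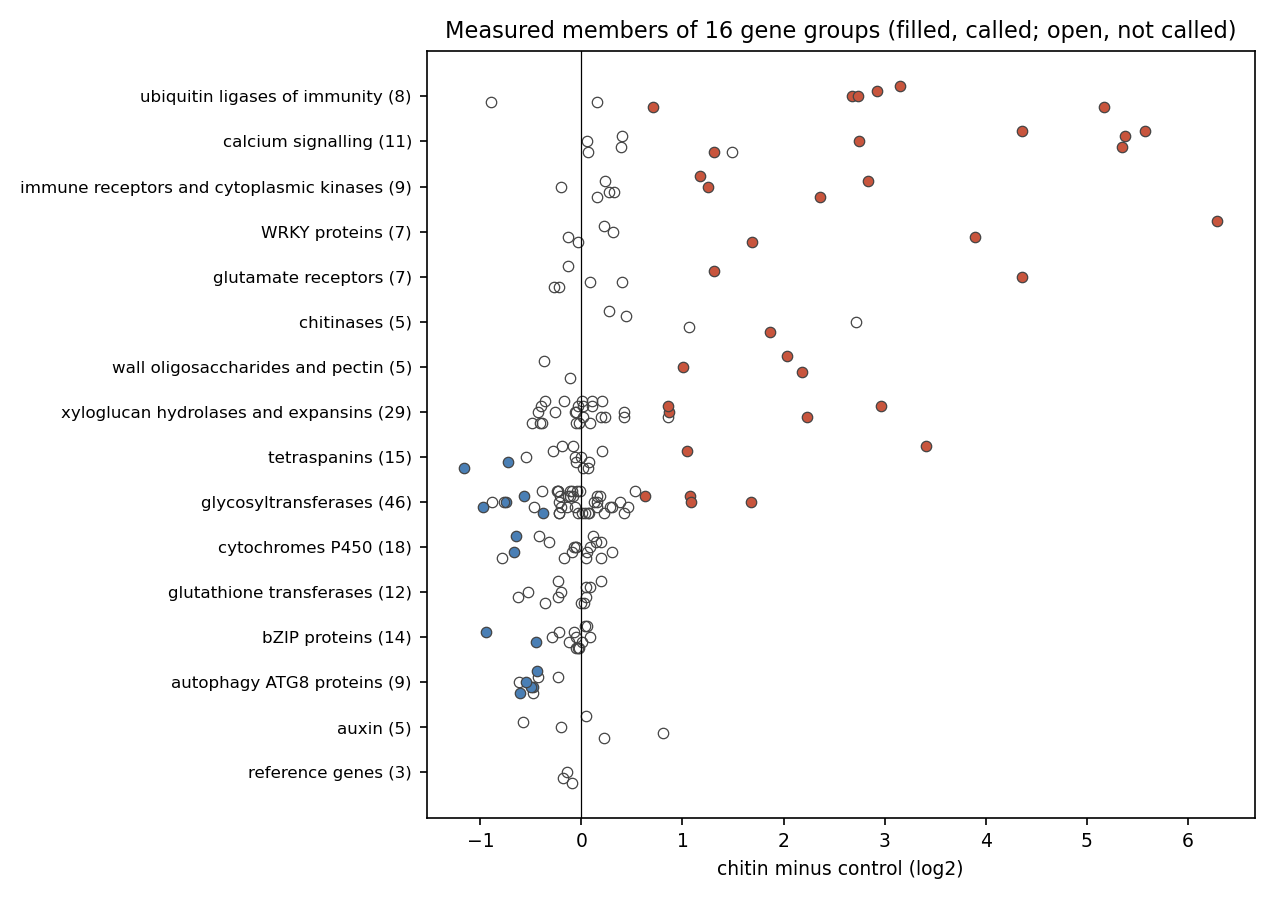
Chitin minus control difference (log2) of each measured member of 16 gene groups, with the number measured in brackets; filled points were called (red higher, blue lower, limma adjusted p under 0.05) and open points were not. Of the 8 measured ubiquitin ligases of immunity 6 are filled red, and all 9 ATG8 points lie below 0, 5 of them filled.

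Tetraspanins, membrane proteins that organise microdomains and mark exosomes, moved both ways. Of 15 measured 2 rose and 2 fell, where 4.97% of all probe sets rose and 3.83% fell. TET9 went from 4.43, 3.91 and 3.94 to 7.24, 7.88 and 7.40, a rise of 3.41 ± 0.32 log2 (SE; limma adjusted p = 3.2e-04). TET8, the gene for a protein of plant exosomes, was already at 12.06, 11.59 and 11.51 and went to 12.66, 12.98 and 12.63, a rise of 1.04 ± 0.18. TET5 went from 8.14, 8.19 and 8.37 to 6.93, 6.97 and 7.34, a fall of log2 -1.16 ± 0.13. TET6 went from 7.87, 8.25 and 8.44 to 7.07, 7.63 and 7.68, a fall of log2 -0.73 ± 0.10. Chitin and control arrays did not overlap for any of these 4 genes, and leaving out any array kept the calls of TET9, TET5 and TET6. The count of rises was 1 with ordinary t tests and from 1 to 2 as each array was left out. TET9 kept its call in each of these, so the call that was lost is that of TET8. Over all probe sets 10.1% were apart and higher with chitin and 16.8% were apart and lower. After spike-in scaling TET5 was at -0.95 (adjusted p = 0.122) and TET6 at -0.52 (adjusted p = 0.538).

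Of 46 measured glycosyltransferases, which attach sugars to hormones and defence compounds, 4 rose and 4 fell, with a median of -0.05 log2, where 4.97% of all probe sets rose and 3.83% fell. With ordinary t tests 1 rose and 1 fell, after spike-in scaling none passed (0 and 0), and as each array was left out 1 to 4 rose and 1 to 3 fell. UGT71B6, an abscisic acid glucosyltransferase, went from 5.81, 5.27 and 5.61 to 7.24, 7.65 and 6.84 and rose by 1.68 ± 0.33 (SE; limma adjusted p = 0.0124), a call lost without control replicate 2, control replicate 3 or chitin replicate 2. UGT73D1 went from 7.93, 8.32 and 8.15 to 9.15, 9.42 and 9.06 and rose by 1.08 ± 0.17. UGT71C4 went from 8.26, 8.46 and 8.57 to 7.61, 7.71 and 7.70, log2 -0.75 ± 0.11. Of 18 genes matched by annotation words to cytochromes P450 none rose, and CYP71B37 (-0.67 ± 0.13) and CYP71B28 (-0.65 ± 0.16) fell. Without 4 and 5 of the 6 arrays, respectively, their calls were lost, as they were with ordinary t tests and after spike-in scaling, and that of CYP71B28 also after median centring. CYP71B5 and CYP71B6, P450 genes that the match missed, rose by 0.87 ± 0.12 and 0.79 ± 0.16. The match also missed CYP84A4, CYP51G2, CYP78A9 and CYP79A2, and none of these was called. None of 12 glutathione transferases and none of 7 peroxidases was called.

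In the lists of abscisic acid and water stress and of sugar and energy status, 2 of 3 measured genes each fell and none rose, where 3.83% of all probe sets fell. COR15A (0.08 ± 0.07) and AKINBETA1 (-0.33 ± 0.09) were not called. LEA4-5, a late embryogenesis abundant protein of water stress, went from 9.34, 8.68 and 8.57 to 7.76, 6.55 and 6.01. The first replicate was the highest in both groups. The change was -2.09 ± 0.53 log2 (SE; limma adjusted p = 0.0422), and its call was lost whichever of the 6 arrays was left out. XERICO, a RING protein that raises abscisic acid, went from 9.63, 10.15 and 10.20 to 8.87, 8.96 and 9.05 (-1.04 ± 0.17). ATL8, a RING-type ubiquitin ligase, was at 9.20, 8.10 and 8.79 and went to 7.54, 6.25 and 6.72 (-1.86 ± 0.25, adjusted p = 0.00193). Each pair fell by a similar step, replicate 2 was the lowest in both groups, and the call held after spike-in scaling. SIS, a salt-induced serine-rich protein gene, was at 10.19, 10.77 and 10.71 and went to 9.36, 9.10 and 9.07 (-1.38 ± 0.30), and its call was lost without 4 of the 6 arrays. SIM, the 1 measured gene of the cell cycle list and an inhibitor of cyclin-dependent kinases that starts endoreduplication, went from 10, 10.52 and 10.73 to 8.70, 8.49 and 9.15 (-1.64 ± 0.21). All chitin arrays were below all control arrays, and no array decided the call.

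ATG8 proteins coat the autophagosome and bind its cargo, and 9 genes of the family were measured. Of these 5 fell and none rose, where 3.83% of all probe sets fell. All 9 lay below 0, from -0.62 to -0.23 log2, with a median of -0.48 against -0.041 over all probe sets. ATG8D went from 8.58, 8.90 and 8.75 to 8.25, 8.40 and 8.27 (-0.44 ± 0.08, SE; limma adjusted p = 0.0072). ATG8G went from 8.20, 7.91 and 8.25 to 7.67, 7.50 and 7.55 (-0.55 ± 0.10), and ATG8E from 9.42, 9.82 and 9.78 to 9.16, 9.12 and 8.91 (-0.61 ± 0.12). The groups did not overlap for these 3, as for the 16.8% of all probe sets that were apart and lower with chitin. Each change was smaller than 2-fold. The count of falls was 4 with no replicate block, from 1 to 6 as each array was left out, 2 with ordinary t tests and 0 after spike-in scaling. Among transcription factors AT5G47390, the MYB gene KUA1 of cell expansion, was even in controls at 9.90, 9.94 and 10. It fell to 9.50, 9.46 and 9.30 (-0.53 ± 0.08). The gene bHLH104, for a factor of iron supply, fell from 9.64, 9.81 and 9.93 to 9.33, 9.30 and 9.31 (-0.48 ± 0.10). Both calls were lost after spike-in scaling, and that of bHLH104 also without 3 of the 6 arrays. None of 5 measured genes of the auxin list was called, and in the family of auxin-responsive proteins IAA33 was the 1 called gene of 8 measured (-0.49 ± 0.13), and leaving out any of the 6 arrays ended its call. PIA1, the 1 gene matched by annotation words to protein phosphatases 2C, fell (-0.42 ± 0.11) and lost its call without 5 of the 6 arrays. Word matches can miss genes that the annotation names by locus only, so this 1 gene does not describe the family.

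By size alone most of the largest changes fell on genes that the annotation names by locus only. AT3G02840 had the largest rise of all probe sets, from 4.60, 4.04 and 3.98 to 11.23, 11.69 and 11.33, or 7.21 ± 0.42 log2 (SE; limma adjusted p = 4.3e-05). It went from near the low end of the scale to within the bright range on all 3 chitin arrays. AT1G07160 went from 4.23, 4.42 and 4.08 to 9.94, 11.11 and 10.42 and rose by 6.25 ± 0.32. AT5G28610, AT5G52750, AT4G28460, AT1G58420 and AT2G23270 rose by 5.38 to 5.87, and AT5G14700, AT5G05300 and AT3G12910 by 5.03 to 5.32. Each of these 8, picked for the size of the rise, stood apart from the controls on all chitin arrays. Over all probe sets 10.1% were apart and higher with chitin. Of the falls, AT2G21560 went from 9.12, 9.05 and 9.28 to 7.58, 5.97 and 6.86 (-2.35 ± 0.32). AT5G61590, known as DEWAX, a repressor of wax synthesis, went from 9.61, 10.38 and 10.51 to 7.97, 8.03 and 7.54 (-2.32 ± 0.26). AT5G03230 was at -2.24 ± 0.29, AT1G49470 at -2.10 ± 0.39, AT3G20340 at -1.91 ± 0.16, AT3G26510 at -1.78 ± 0.26 and AT2G35585 at -1.74 ± 0.29. AT1G49470 lost its call without control replicate 3, chitin replicate 2 or chitin replicate 3. With ordinary t tests AT1G49470 (adjusted p = 0.068) and AT2G35585 (adjusted p = 0.0526) missed the threshold. The largest fall of all, of 3.22 log2 in size, belonged to a probe set with no listed gene, and 913 of the 2002 called probe sets had no single listed gene.

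Some genes that rose were neighbours. Of 5909 neighbouring gene pairs with both members measured, both rose in 46, both fell in 8 and 1 rose while the other fell in 17. Where at least 1 gene of a pair rose, both did in 8.30% of 554 pairs. Of the genes in all these pairs 5.08% rose. The first share counts pairs and the second counts genes, so they cannot be set against each other, and no test was run. AT5G52750 and AT5G52760 rose by 5.74 and 4.57 log2, AT2G36430 and AT2G36440 by 2.51 and 4.09, and AT1G51915 and AT1G51920 by 3.43 and 5.07. BIK1 and its neighbour AT2G39650 rose by 1.17 and 3.44. Relatives in tandem can share probe sequence, and whether that adds to these counts was not tested.

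To see where the response to chitin differs from that to plant wall fragments, the chitin arrays were set against the cellobiose and OGs arrays in the same fit. All elicitors were compared with the same control arrays, and with no doses given, effects of dose and of elicitor cannot be told apart. Against cellobiose 4 probe sets differed (0.0176%), 3 higher (0.0132%) and 1 lower (0.00440%) with chitin, while 1291 had an unadjusted p under 0.05 (5.68%). Against OGs 24 differed (0.106%), 16 higher (0.0703%) and 8 lower (0.0352%), while 1447 had an unadjusted p under 0.05 (6.36%). When only the 6 arrays of each pair of groups were fitted none passed, with 1216 and 1152 at an unadjusted p under 0.05.

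AT3G12910, a protein-coding locus, was at 3.24, 3.45 and 3.54 in controls and at 7.68, 9.23 and 8.41 with chitin. It was at 4.42, 4.83 and 4.99 with cellobiose and at 3.78, 4.00 and 4.39 with OGs. The chitin arrays stood above all the others, and the gene was 3.69 log2 higher than with cellobiose (95% interval 3.15 to 4.23, limma adjusted p = 0.00172) and 4.38 higher than with OGs (3.84 to 4.92, adjusted p = 3.9e-04). Both calls held whichever control, chitin or compared elicitor array was left out, and both were lost in ordinary t tests, after spike-in scaling and when only 6 arrays were fitted. AT2G36440 was at 3.70, 3.77 and 3.59 in controls and at 7.40, 8.69 and 7.25 with chitin. Its cellobiose arrays were at 4.40, 3.78 and 3.91 and its OGs arrays at 3.98, 3.63 and 4.33, close to controls. Against control it rose by 4.09 ± 0.35 log2 with chitin, where cellobiose gave 0.34 and OGs 0.29, neither of them called. The difference from cellobiose was 3.75 (2.95 to 4.55, adjusted p = 0.015) and that from OGs 3.80 (3.00 to 4.60, adjusted p = 0.00808). The call against cellobiose held in 7 of 15 alternatives and that against OGs in 10 of 15.

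BGLU27, a beta-glucosidase family gene, was the 1 gene lower with chitin than with cellobiose. It was at 3.95, 4.00 and 3.78 in controls, 4.38, 4.47 and 4.30 with chitin and 7.44, 7.47 and 6.51 with cellobiose. Chitin arrays lay a little above controls and were not called (0.47 ± 0.19, adjusted p = 0.178), and the difference from cellobiose was -2.75 log2 (-3.19 to -2.32, limma adjusted p = 0.00172). Against OGs, AT1G07160 was 2.86 higher with chitin (2.15 to 3.58, adjusted p = 0.0298) and AT5G37490 2.45 higher (1.72 to 3.19, adjusted p = 0.0389). AT5G62150 was 1.44 higher, AT1G68330 0.71 higher, AT3G15630 at -0.78 and AT3G20340 at -1.33. Each of these 6 calls against OGs held in at most 6 of the 15 or 16 alternatives. AT3G20340 fell with chitin, from 9.21, 9.44 and 9.84 to 7.69, 7.32 and 7.75, and with OGs it was at 8.57, 8.93 and 9.24. With cellobiose it was at 7.59, 7.69 and 7.56, close to the chitin arrays. AT5G37490 rose by 4.59 log2 with cellobiose, against 5.17 with chitin. None of these 6 genes was called between chitin and cellobiose, so the differences from OGs are not particular to chitin.

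**Figure D5:**
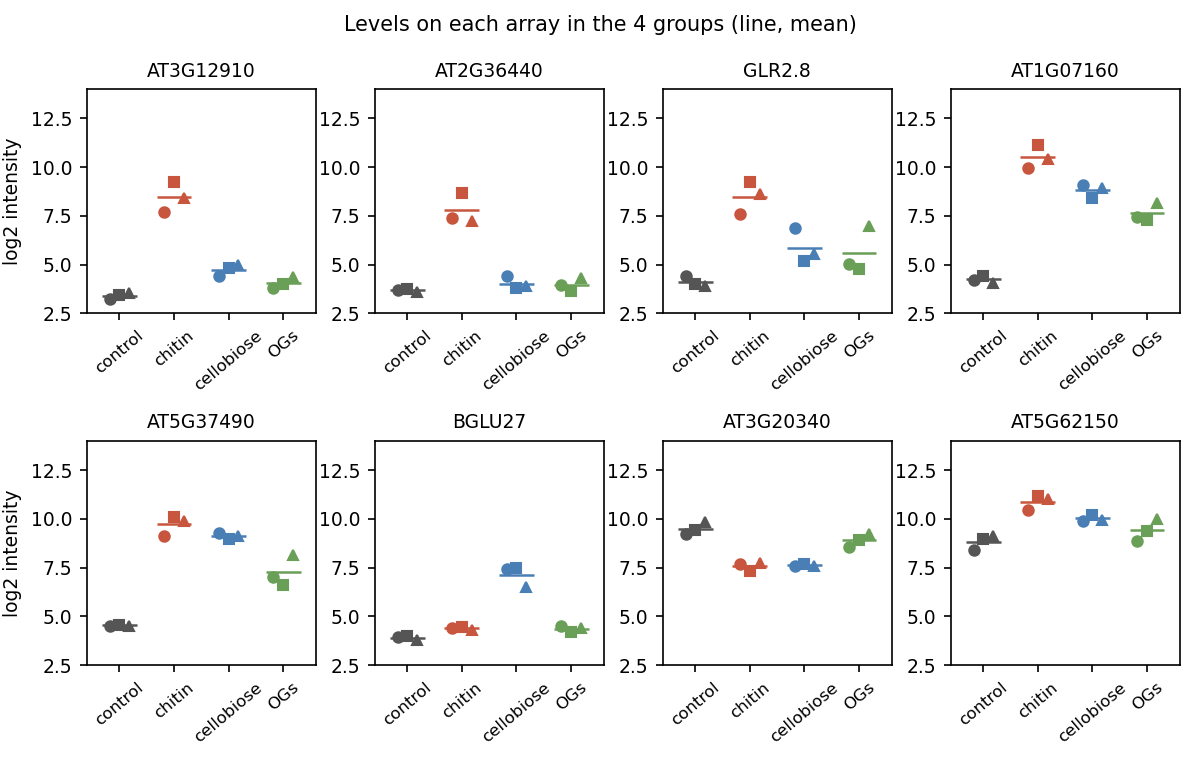
Log2 intensity of 8 genes on the 3 arrays of each group (control grey, chitin red, cellobiose blue, OGs green; lines are means). AT3G12910 and AT2G36440 are at 7.25 to 9.23 on the chitin arrays and below 5 on all others, BGLU27 is at 6.51 to 7.47 on cellobiose arrays and below 5 on the rest.

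Several genes that chitin raised had smaller values with the other elicitors but no called difference. GLR2.8, at 4.36 log2 with chitin, was at 1.73 with cellobiose and 1.45 with OGs and was called with neither. Its difference was 2.63 (1.17 to 4.09, limma adjusted p = 0.617) from cellobiose and 2.91 (1.45 to 4.37, adjusted p = 0.214) from OGs. AT4G28460 rose by 5.67 with chitin, 2.92 with cellobiose and 2.51 with OGs, and the difference from OGs was 3.16 (2.11 to 4.21, adjusted p = 0.058). UGT73D1, at 1.08 with chitin, was at 0.18 and 0.45 with the others and called with neither. Its difference from cellobiose was 0.89 (0.52 to 1.27, adjusted p = 0.369). CML37, at 5.58, was at 4.21 and 2.52, and its difference from OGs was 3.06 (1.59 to 4.52, adjusted p = 0.202). With chitin, cellobiose and OGs, WRKY53 was at 6.29, 6.06 and 5.27 and PUB24 at 3.15, 3.29 and 2.20.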

How the data were processed

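Root total RNA was read on Affymetrix ATH1 arrays, 3 per group. The authors deposited log2 probe set intensities normalized with GCRMA (background by probe sequence, normalization between arrays), per the series' design text; the submitters' processing notes also name Affymetrix Expression Console, with no role given. A shift that all genes share would be removed by this. The table holds 22810 rows, of which 64 manufacturer's controls were kept apart and 22746 tested; 24 poly-A spike-ins served for rescaling.

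Gene names came from GEO's platform annotation and RefSeq's TAIR10.1 (13436 of 13513 probe sets with 1 gene matched). The 503 with several genes and the 8730 not listed were not named. With 3 arrays per group, the number of arrays limits the precision. limma 3.58.1 in R 4.3.3 fitted treatment (4 levels), blocked by replicate number, to 12 arrays, with 6 residual and 3.09 prior degrees of freedom; tests were two-sided, and a probe set was called at a Benjamini-Hochberg adjusted p under 0.05. SE and 95% intervals come from that fit. Pairing follows the design text, which forms ratios within sample pairs, and deviations of same-numbered chitin and control arrays correlated at 0.427, 0.159 and 0.355 across probe sets. With cellobiose arrays the same-numbered chitin arrays were at 0.521, 0.005 and -0.034, and with OGs arrays at 0.395, -0.051 and 0.133, while chitin replicate 3 and cellobiose replicate 2 were at 0.403. For those 2 differences replicate 1 thus had the highest same-numbered correlations, and replicates 2 and 3 were at 0.133 or below. Between chitin and control, replicate 2 at 0.159 was below chitin replicate 3 with control replicate 2, at 0.174. The fit was tested on simulated data.

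Genes were named by rule: the 15 largest rises and 10 largest falls with 1 listed gene, the 10 and 6 largest with a symbol, up to 3 called members per list or family, all measured chitinases, tissue markers, and differences between elicitors. Uncalled list members, RING1, PUB25, SD1-29, TET8 and the genes of the neighbour pairs were named beyond it after their values were seen. So were BZIP60, CYP71B5, CYP71B6 and the uncalled bZIP and P450 genes that the word matches missed. The members, lists and rule were chosen with earlier results of these data known. No sequence is printed, and promoter motifs were not analysed here.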

Additional observations from a re-analysis of the deposited data

How the results depend on the processing

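The count of 2002 probe sets that changed with chitin was 1841 with no replicate block, 1895 with only the 6 arrays, 1900 with an intensity trend and robust variances, 1788 among the brighter 11373 probe sets and 1840 after median centring. It was 1111 with ordinary t tests, 730 after spike-in scaling and from 879 to 1861 as each of the 6 chitin and control arrays was left out. The cellobiose and OGs arrays all stayed in for that range. The lowest counts, 879, 980, 1221 and 1232, came without control replicate 3, chitin replicate 2, control replicate 2 and chitin replicate 3. The 4 differences from cellobiose became 5 with no replicate block and 0 with only the 6 arrays, in the brighter probe sets, with ordinary t tests and after spike-in scaling (unadjusted p under 0.05 for 1216, 568, 1238 and 474), and 2 to 6 as each array was left out. The 24 differences from OGs became 32 with no replicate block, 0 with only the 6 arrays, 1 with ordinary t tests, 0 after spike-in scaling (1152 and 437 unadjusted for the 2 counts of 0) and 2 to 105 as each array was left out, with 105 without OGs replicate 3. Spike-in scaling of the differences, and leaving out cellobiose or OGs arrays, were chosen after seeing the data. Of the 76 called genes picked by the naming rule (genes named beyond it were not counted), 57 kept the call whichever array was left out, 71 with no replicate block, 57 with ordinary t tests and 44 after spike-in scaling; 40 kept it under every alternative they were tested in, 13 or, for genes outside the brighter probe sets, 12. The sign turned after spike-in scaling for 4 uncalled genes, AT2G28390 (0.12), AT1G62500 (0.12), PEX4 (0.07) and AT4G34270 (0.03), and for AT1G62500 as arrays were left out (-0.15 to 0.02). Here the cause was not tested. The promoter motifs planned for analysis were not run.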

Other observations

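Further called genes with a symbol, picked after their values were seen, fall outside the lists. BZIP60, a transcription factor of the unfolded protein response, was at 9.76, 9.49 and 9.48 in controls and 11.21, 11.63 and 11.34 with chitin, and rose by 1.81 ± 0.15 log2 (SE; limma adjusted p = 1.8e-04). The groups were far apart and even. OPCL1, a CoA ligase of jasmonate synthesis, was at 10.47, 7.87 and 7.87 against 11.42, 10.43 and 10.30. Control replicate 1 lay above 2 chitin arrays, so the groups overlapped, and the paired rise was 1.98 ± 0.36. CCOAMT, a caffeoyl-CoA methyltransferase, rose by 2.63 ± 0.50 from 4.80, 5.26 and 5.16 to 7.30, 8.15 and 7.68.

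HEMA2, a glutamyl-tRNA reductase of tetrapyrrole synthesis, rose by 2.66 ± 0.30, APS3, an ATP sulfurylase, by 2.31 ± 0.32, and CSLC04, of xyloglucan synthesis, by 2.21 ± 0.32. CYP71B5, a cytochrome P450 near the low end of the scale, rose by 0.87 ± 0.12, where cellobiose gave 0.06 and OGs 0.09. Its difference from cellobiose was 0.81 (95% interval 0.53 to 1.08, limma adjusted p = 0.198). Falls were also called for the gibberellin receptor gene GID1C (-0.68 ± 0.12) and SLY1, the F-box gene of gibberellin signalling (-0.47 ± 0.10). The derlin genes DER1 (-0.34 ± 0.08) and DER2.1 (-0.51 ± 0.11), of protein export from the endoplasmic reticulum, and the presenilin genes PS1 (-0.33 ± 0.08) and PS2 (-0.38 ± 0.10) fell as well. Their groups did not overlap, as for the 16.8% of all probe sets that were apart and lower with chitin, and each fall was below 2-fold. How these calls hold under the alternatives was not examined gene by gene, and after spike-in scaling 15 falls were called among all probe sets.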
